A study of Saccharomyces cerevisiae with 12 samples.

Results

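The 10 genes of sulfate uptake and reduction in budding yeast were followed step by step along the pathway: SUL1, SUL2, MET3, MET14, MET16, MET5, MET10, MET1, MET8 and MET22. They were taken from the deposited count table by standard name, and all 10 were found among its 7126 features and were among the 6309 features tested. Poly(A) RNA was sequenced from haploid MATa cells in 4 groups of 3 libraries: crz1cnb1 after 48 h in 400 mM KCl, crz1cnb1 at 0 h without added KCl, crz1 after 48 h in 400 mM KCl, and crz1 at 0 h without added KCl. Both strains lacked CRZ1 (crz1delta::LEU2), the transcription factor gene acting downstream of the phosphatase calcineurin. The crz1cnb1 strain lacked CNB1 as well (cnb1delta::KanMx), the gene for calcineurin's regulatory subunit. Both carried his3delta1, ura3delta0, leu2delta0 and lys2delta0 and a HYG-TEFp-GFP(Y66F) cassette on chromosome VI, and were labelled as BY4741 derivatives. Cultures grew in synthetic medium with ammonium chloride as nitrogen source, and KCl cultures were diluted every 12 h. No strain with CRZ1 and no cells kept for 48 h without KCl were among the samples, so KCl and 48 h of culture cannot be told apart. The submitters describe triplicate experiments, and nothing in the labels ties a replicate to its own culture, so p-values measure the spread between these samples.

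Yeast takes up sulfate through the permeases Sul1 and Sul2. ATP sulfurylase (Met3) and APS kinase (Met14) activate it to PAPS, PAPS reductase (Met16) releases sulfite, and sulfite reductase turns sulfite into sulfide, which enters homocysteine, methionine and cysteine. Sulfite reductase has an alpha subunit (Met10) and a beta subunit (Met5) and needs siroheme, which Met1 and Met8 make, while Met22 removes the PAP left over from PAPS. Transcription of the pathway depends on the activator Met4, brought to promoters by Cbf1, which binds an E-box core, and by Met31 and Met32.

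The letters of these binding cores were searched on both strands in the 500 bases before each start codon of the R64 genome. The E-box hexamer CACGTG occurred upstream of 9 of the 10 genes, all but SUL1, and upstream of 374 of 6000 genes genome-wide (6.23%). SUL2, MET3, MET5 and MET10 had 2 copies each, as did 41 of 6000 genes with 2 or more (0.683%). The Met31/Met32 core CTGTGG, read as CCACAG on the other strand, occurred upstream of SUL1, SUL2, MET3 and MET10, and upstream of 790 of 6000 genes (13.2%). The longer form AAACTGTGG occurred upstream of MET3 alone among the 10, and upstream of 51 of 6000 genes (0.85%). All these matches lay between the gene and its upstream neighbour, the closest being CRT10, 215 bases before MET22. A match is a string of letters in a window and not a measured binding site.

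The 7 stretches here are those of the 5 genes that were lower in KCl (SUL2, MET3, MET14, MET5 and MET10) and of 2 genes that were not called, SUL1 without a hexamer and MET16 with 1. They are written 5′ to 3′ on the strand of the gene, with both motifs in capitals and 30 flanking bases. They lie at chrII:788792-788857 (+) for SUL1, chrXII:323180-323292 (+) for SUL2, chrX:455832-456021 (+) for MET3, chrXI:439578-439643 (-) for MET14, chrXVI:877775-877840 (-) for MET16, chrX:683554-683648 (-) for MET5 and chrVI:213033-213135 (+) for MET10, in R64.
SUL1: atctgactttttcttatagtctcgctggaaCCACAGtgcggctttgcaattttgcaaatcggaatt
SUL2: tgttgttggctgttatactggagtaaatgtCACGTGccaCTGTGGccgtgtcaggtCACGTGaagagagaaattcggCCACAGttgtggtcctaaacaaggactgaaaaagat
MET3: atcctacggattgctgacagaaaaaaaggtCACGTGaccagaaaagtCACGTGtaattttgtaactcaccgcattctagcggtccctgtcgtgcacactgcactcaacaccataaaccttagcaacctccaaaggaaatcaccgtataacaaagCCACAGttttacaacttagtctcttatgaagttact
MET14: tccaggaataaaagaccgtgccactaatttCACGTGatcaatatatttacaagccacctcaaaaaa
MET16: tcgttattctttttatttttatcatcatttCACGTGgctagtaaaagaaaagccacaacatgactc
MET5: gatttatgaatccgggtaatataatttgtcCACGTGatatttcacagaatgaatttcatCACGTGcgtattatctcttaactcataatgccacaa
MET10: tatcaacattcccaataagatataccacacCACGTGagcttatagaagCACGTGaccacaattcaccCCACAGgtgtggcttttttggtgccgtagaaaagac

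**Figure D1:**
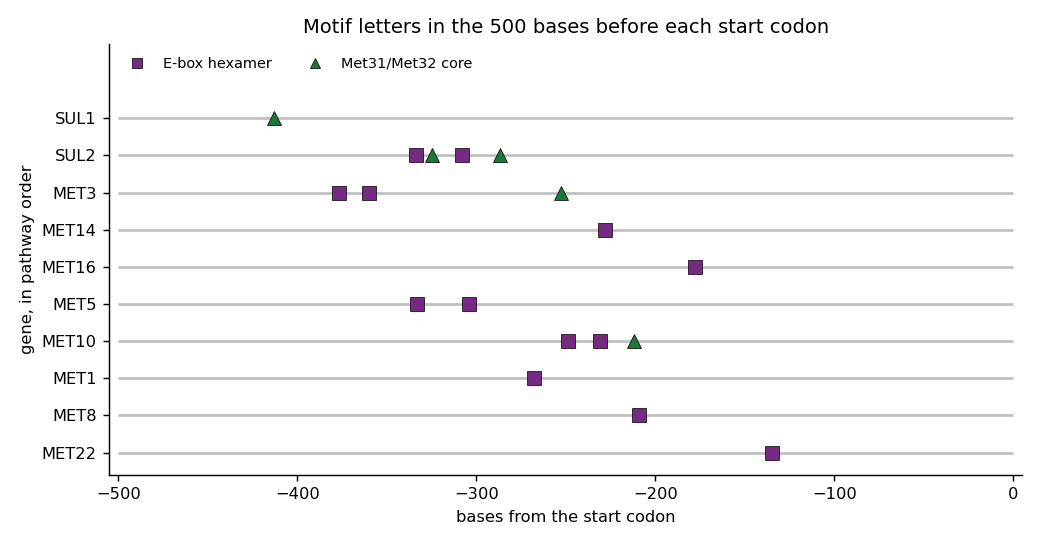
Positions of the E-box hexamer (squares) and the Met31/Met32 core (triangles) in the 500 bases before the start codon of each of the 10 genes, which run down the page in pathway order; the horizontal axis gives bases from the start codon. SUL2, MET3, MET5 and MET10 show 2 hexamers each, 5 genes show 1, and SUL1 shows a core and no hexamer.

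Averaged over both strains, 5 of the 10 genes were lower after 48 h in KCl and 0 were higher by edgeR's quasi-likelihood test at an adjusted p of at most 0.05, where 1.38% of all tested features were called lower and 2.39% higher. They were the permease gene SUL2, both sulfate activation genes MET3 and MET14, and both sulfite reductase subunit genes MET5 and MET10. The log2 fold changes ran from -1.29 for MET3 to -0.70 for SUL2. SUL1, MET16, MET1, MET8 and MET22 did not pass the test. In each of the 5 called genes all 6 KCl libraries lay below all 6 libraries at 0 h, which held for 86 of the 6309 tested features (1.36%). The median log2 fold change was -0.47 over the 10 genes and 0.02 over all tested features.

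The library values behind this are in normalised CPM, counts per 1000000 scaled by edgeR's trimmed mean of M values, and are given for replicates 1, 2 and 3. Levels of different genes are compared only in the authors' TPM, which accounts for transcript length. In bulk RNA, fewer cells that use a gene and less of its RNA per cell cannot be told apart.

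**Figure D2:**
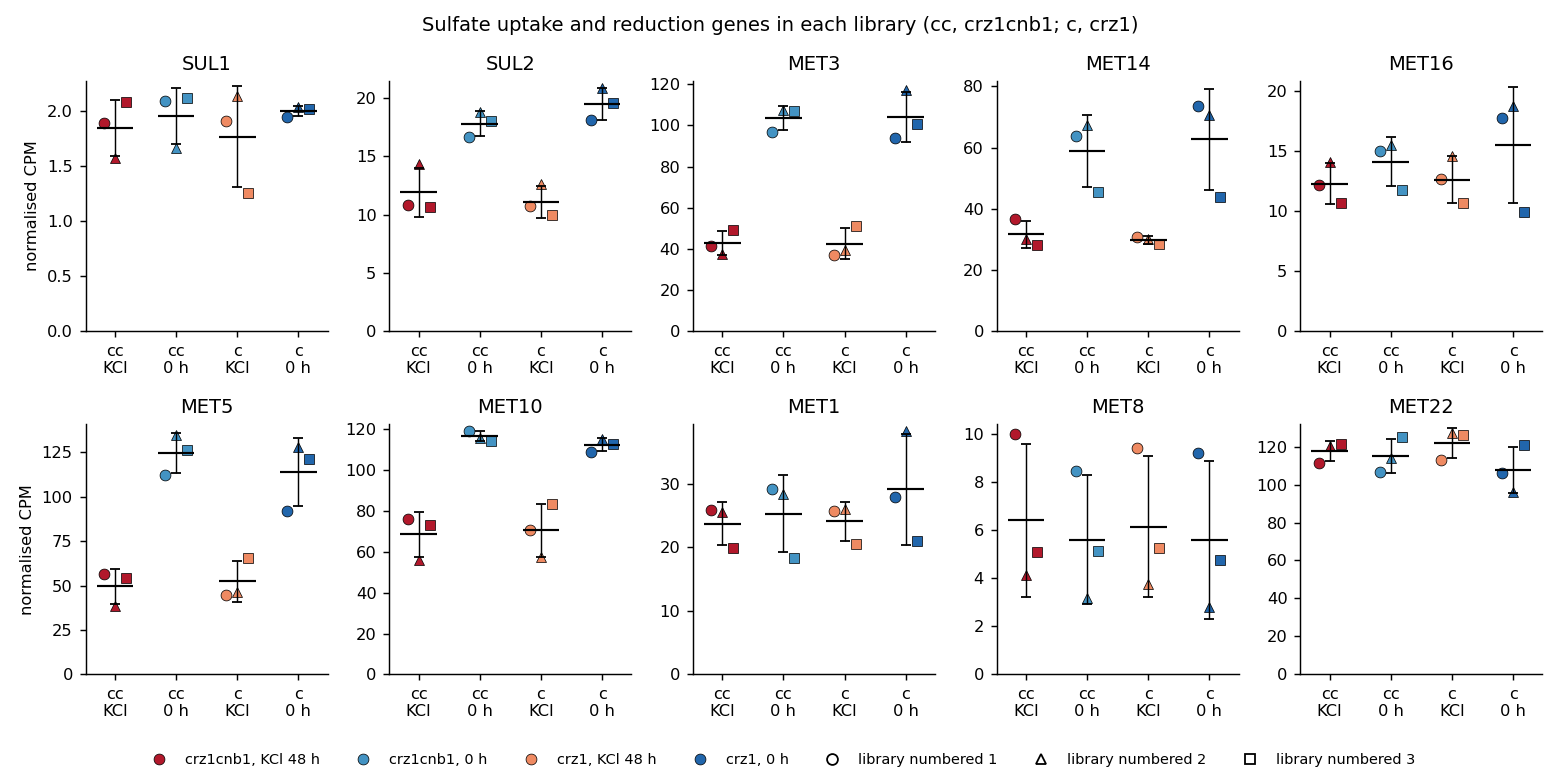
Normalised CPM of the 10 genes in each of the 12 libraries, 1 panel per gene with its own linear axis from 0; point shapes give the replicate number, bars the mean and error bars the SD of 3 libraries. In SUL2, MET3, MET14, MET5 and MET10 every KCl library lies below every library at 0 h, while in MET8 the libraries order by replicate number within all 4 groups.

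Uptake was represented by 2 permease genes at different levels. SUL2 (YLR092W, chrXII:323544-326225) had 10.8, 14.3 and 10.6 CPM in crz1cnb1 in KCl, against 16.6, 18.8 and 18.01 CPM in crz1cnb1 at 0 h. The crz1 libraries had 10.7, 12.6 and 9.98 CPM in KCl, against 18.1, 20.9 and 19.5 CPM at 0 h. The KCl and 0 h libraries did not overlap in either strain. Averaged over the strains, SUL2 fell by a log2 fold of 0.70 ± 0.12 (SE; 95% interval -0.96 to -0.43; edgeR adjusted p = 0.00727), to 0.617 times its level at 0 h, and was lower in 6 of 6 pairs of same-numbered libraries. For this and later counts of pairs, the share of all tested features was not counted. In the single strains the log2 fold change of SUL2 was -0.58 ± 0.18 in crz1cnb1 (edgeR adjusted p = 0.232) and -0.81 ± 0.18 in crz1 (edgeR adjusted p = 0.0666). With the replicate number as a block both passed (edgeR adjusted p = 0.0161 in crz1cnb1 and 0.00258 in crz1). The averaged call was lost in both limma fits on TPM (adjusted p = 0.0969 and 0.103).

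SUL1 (YBR294W, chrII:789235-791814), the other high-affinity sulfate permease gene, was the lowest of the 10 genes in every group, at 26 to 49 counts per library. It averaged 1.85 ± 0.26 CPM in crz1cnb1 in KCl and 1.96 ± 0.26 CPM at 0 h, and 1.77 ± 0.46 CPM in crz1 in KCl and 2.0 ± 0.05 CPM at 0 h (SD, n = 3 each). Its averaged log2 fold change was -0.13 ± 0.17 (SE; 95% interval -0.50 to 0.24; edgeR adjusted p = 0.780), with overlapping groups in both strains. In TPM it stood at 0.58 ± 0.05 in KCl and 0.55 ± 0.06 at 0 h in crz1cnb1, where SUL2 stood at 3.64 ± 0.89 in KCl and 4.85 ± 0.64 at 0 h (SD, n = 3 each).

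The SUL1 to SUL2 ratio of TPM was therefore higher in KCl. It was 0.167 ± 0.047 in KCl and 0.115 ± 0.020 at 0 h in crz1cnb1, and 0.165 ± 0.029 in KCl and 0.107 ± 0.005 at 0 h in crz1 (SD, n = 3 each). The mean log2 difference was 0.56 (p = 0.015, two-sided exact permutation test within strains over 400 arrangements, whose smallest p is 0.005). Alone, crz1cnb1 gave 0.51 (exact p = 0.3) and crz1 gave 0.61 (exact p = 0.1, the smallest that 3 against 3 allows). The coding sequences of the 2 genes were identical at 73.9% of 2457 aligned bases and shared 0 runs of 50 bases.

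Sulfate activation held the gene with the most negative log2 fold change of the 10. MET3 (YJR010W, chrX:456239-457774), the ATP sulfurylase gene, had 41.6, 37.6 and 49.0 CPM in crz1cnb1 in KCl, against 96.8, 107 and 107 CPM in crz1cnb1 at 0 h. In crz1 it had 36.9, 39.3 and 51.0 CPM in KCl, against 94.0, 117 and 101 CPM at 0 h. The KCl and 0 h libraries were far apart in both strains, with no overlap. MET3 fell by a log2 fold of 1.29 ± 0.12 (SE) averaged over the strains (95% interval -1.55 to -1.03; edgeR adjusted p = 6.52e-05), to 0.410 times its level at 0 h. It fell by 1.28 ± 0.17 in crz1cnb1 (edgeR adjusted p = 0.00406) and by 1.30 ± 0.17 in crz1 (edgeR adjusted p = 0.00276). By p-value it ranked 8 among the 6309 features in the averaged comparison.

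MET14 (YKL001C, chrXI:438777-439385), the APS kinase gene, had 36.7, 30.2 and 28.1 CPM in crz1cnb1 in KCl, against 63.8, 67.4 and 45.6 CPM in crz1cnb1 at 0 h. Its crz1 values were 30.8, 30.2 and 28.4 CPM in KCl, against 73.6, 70.6 and 43.7 CPM at 0 h. The 0 h libraries numbered 3 were the lowest of their groups in both strains but stayed above every KCl library. MET14 fell by a log2 fold of 0.98 ± 0.15 (SE) averaged over the strains (95% interval -1.31 to -0.66; edgeR adjusted p = 0.00282), to 0.506 times its level at 0 h. It fell by 1.07 ± 0.21 in crz1 (edgeR adjusted p = 0.0428) and was at -0.90 ± 0.21 in crz1cnb1 (edgeR adjusted p = 0.0974; 0.00279 with the replicate block). The call in crz1 was lost in 8 of 12 fits that left out 1 library (adjusted p up to 0.178). The library left out was any crz1 KCl library, crz1 control 1 or 2, crz1cnb1 KCl 1, or crz1cnb1 control 1 or 2. That call held in 8 of 21 alternatives. Limma lost it with voom (adjusted p = 0.0691) and in both fits on TPM (0.339 and 0.351). EdgeR lost it on the 6 crz1 libraries alone (adjusted p = 0.0715) and with all libraries numbered 2 left out (0.208). The averaged call was lost in both limma fits on TPM (adjusted p = 0.0646 and 0.0633) and with all libraries numbered 2 left out (edgeR adjusted p = 0.0511).

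The gene between these steps and sulfite reduction did not pass the test. MET16 (YPR167C, chrXVI:876847-877632), the PAPS reductase gene, averaged 12.3 ± 1.72 CPM in crz1cnb1 in KCl and 14.1 ± 2.04 CPM at 0 h, and 12.6 ± 1.96 CPM in crz1 in KCl and 15.5 ± 4.84 CPM at 0 h (SD, n = 3 each). The groups overlapped in both strains. Its averaged log2 fold change was -0.25 ± 0.17 (SE; 95% interval -0.62 to 0.12; edgeR adjusted p = 0.529), negative in 5 of 6 pairs, and it was called in 0 of 20 alternatives.

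Transcripts of both sulfite reductase subunit genes were lower in KCl, those of the beta subunit gene more than those of the alpha subunit gene. MET5 (YJR137C, chrX:678957-683285), the beta subunit gene, had 56.3, 38.3 and 54.3 CPM in crz1cnb1 in KCl, against 112, 135 and 126 CPM in crz1cnb1 at 0 h. In crz1 it had 44.9, 46.6 and 65.5 CPM in KCl, against 92.1, 128 and 121 CPM at 0 h. The groups did not overlap in either strain. MET5 fell by a log2 fold of 1.22 ± 0.15 (SE) averaged over the strains (95% interval -1.54 to -0.91; edgeR adjusted p = 5.01e-04), to 0.428 times its level at 0 h. It fell by 1.33 ± 0.21 in crz1cnb1 (edgeR adjusted p = 0.0133) and by 1.12 ± 0.21 in crz1 (edgeR adjusted p = 0.0274). The call in crz1cnb1 was lost without crz1cnb1 control 2 or 3 (adjusted p = 0.0578 and 0.0601). The call in crz1 was lost without crz1 KCl 1 or 2 or crz1 control 2 or 3 (adjusted p up to 0.185). Over 21 alternatives the call held in 17 in crz1cnb1 and 13 in crz1. Limma on log2(TPM + 1) lost it in both strains (adjusted p = 0.0520 in crz1cnb1 and 0.0967 in crz1). EdgeR without all libraries numbered 2 lost it in both too (adjusted p = 0.0904 and 0.125). The call in crz1 was also lost by limma on log2(TPM + 0.1) (adjusted p = 0.101). EdgeR on the 6 crz1 libraries alone lost the call in crz1 as well (adjusted p = 0.0706).

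MET10 (YFR030W, chrVI:213312-216419), the alpha subunit gene, had 76.0, 56.1 and 73.3 CPM in crz1cnb1 in KCl, against 119, 116 and 114 CPM in crz1cnb1 at 0 h. The crz1 libraries had 70.9, 57.3 and 83.2 CPM in KCl, against 109, 115 and 113 CPM at 0 h. The 6 libraries at 0 h lay close together, and the 6 KCl libraries lay below them with a wider spread and with the libraries numbered 2 lowest in both strains. MET10 fell by a log2 fold of 0.72 ± 0.12 (SE) averaged over the strains (95% interval -0.98 to -0.46; edgeR adjusted p = 0.00523), to 0.607 times its level at 0 h. It was -0.77 ± 0.17 in crz1cnb1 (edgeR adjusted p = 0.0776; 0.00488 with the replicate block) and -0.67 ± 0.17 in crz1 (edgeR adjusted p = 0.134; 0.0105 with the replicate block).

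The MET5 to MET10 ratio of TPM was 0.531, 0.490 and 0.532 in crz1cnb1 in KCl, against 0.676, 0.835 and 0.792 in crz1cnb1 at 0 h. In crz1 it was 0.454, 0.583 and 0.565 in KCl, against 0.606, 0.798 and 0.771 at 0 h. All 6 KCl ratios lay below all 6 ratios at 0 h. The mean log2 difference was -0.50 (p = 0.005, two-sided exact permutation test within strains, the smallest its 400 arrangements allow), with -0.56 in crz1cnb1 and -0.44 in crz1 (exact p = 0.1 each, the smallest that 3 against 3 allows).

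**Figure D3:**
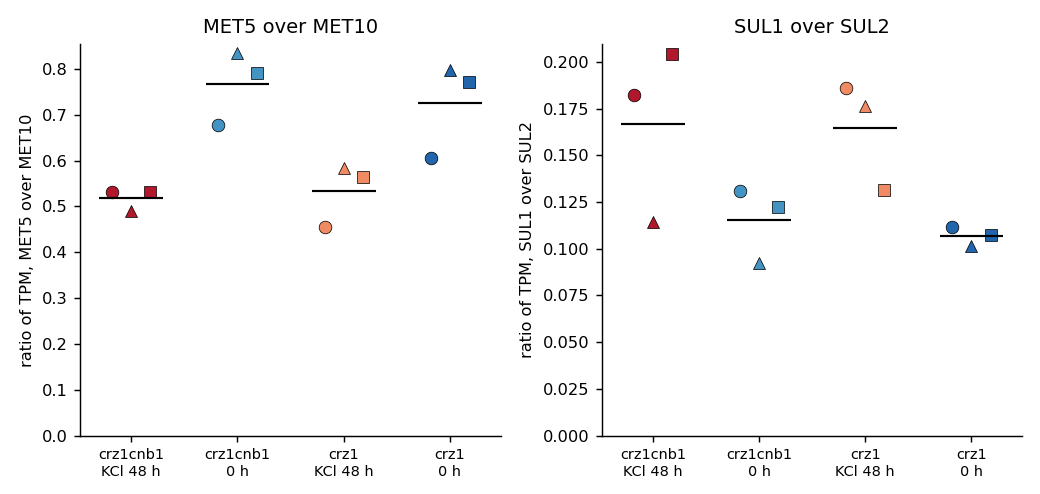
Ratio of TPM of MET5 over MET10 (left) and SUL1 over SUL2 (right) in each library on linear axes from 0; point shapes give the replicate number as in the plot of CPM by library, and bars the mean of 3. The MET5 to MET10 ratio averages 0.518 in KCl and 0.768 at 0 h in crz1cnb1, and the KCl and 0 h points do not overlap. The SUL1 to SUL2 ratios of KCl and 0 h overlap in crz1cnb1 and not in crz1.

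The siroheme genes did not pass the test in any KCl comparison. MET1 (YKR069W, chrXI:571612-573393), which encodes the methyltransferase of siroheme synthesis, averaged 23.7 ± 3.34 CPM in crz1cnb1 in KCl and 25.3 ± 6.04 CPM at 0 h, and 24.1 ± 3.07 CPM in crz1 in KCl and 29.1 ± 8.74 CPM at 0 h (SD, n = 3 each). Its averaged log2 fold change was -0.18 ± 0.17 (SE; 95% interval -0.55 to 0.18; edgeR adjusted p = 0.661). MET8 (YBR213W, chrII:650368-651192), which encodes the dehydrogenase and chelatase of the last steps, had 10.01, 4.11 and 5.07 CPM in crz1cnb1 in KCl, against 8.47, 3.19 and 5.12 CPM in crz1cnb1 at 0 h. In crz1 it had 9.41, 3.75 and 5.23 CPM in KCl, against 9.20, 2.79 and 4.75 CPM at 0 h. The library numbered 1 was the highest and the library numbered 2 the lowest in each of the 4 groups. The averaged log2 fold change of MET8 was 0.17 ± 0.35 (SE; 95% interval -0.59 to 0.93; edgeR adjusted p = 0.868), the widest interval of the 10 genes. Within same-numbered pairs MET8 was higher in KCl in 5 of 6, by at most 0.42. With the replicate block it was still not called (edgeR adjusted p = 0.507 in crz1). Over all alternatives in edgeR, DESeq2 and limma, its adjusted p was at least 0.434 in crz1cnb1 and at least 0.211 averaged.

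MET22 (YOL064C, chrXV:206103-207176), also called HAL2, encodes the phosphatase that hydrolyses PAP and is known as a target of sodium and lithium toxicity. It had 112, 120.2 and 121 CPM in crz1cnb1 in KCl, against 107, 114 and 125 CPM in crz1cnb1 at 0 h. Its crz1 values were 113, 127 and 126 CPM in KCl, against 106, 96.3 and 121 CPM at 0 h. The groups overlapped in CPM in both strains. Its averaged log2 fold change was 0.11 ± 0.11 (SE; 95% interval -0.12 to 0.34; edgeR adjusted p = 0.687), and it was called in 0 of 20 alternatives. In TPM, MET22 averaged 89.1 ± 7.61 in crz1cnb1 in KCl and 77.9 ± 5.38 at 0 h, with overlapping libraries (SD, n = 3 each). In crz1 it averaged 94.9 ± 6.13 in KCl and 79.8 ± 3.54 at 0 h, with no overlap (SD, n = 3 each). The share of all features without overlap in TPM was not counted, so this separation is not read as a change of MET22. Between KCl and 0 h the median log2 change of all tested features, as log2(TPM + 1), was 0.16 in crz1cnb1, 0.07 in crz1 and 0.11 averaged, and limma on TPM did not call MET22 either.

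**Figure D4:**
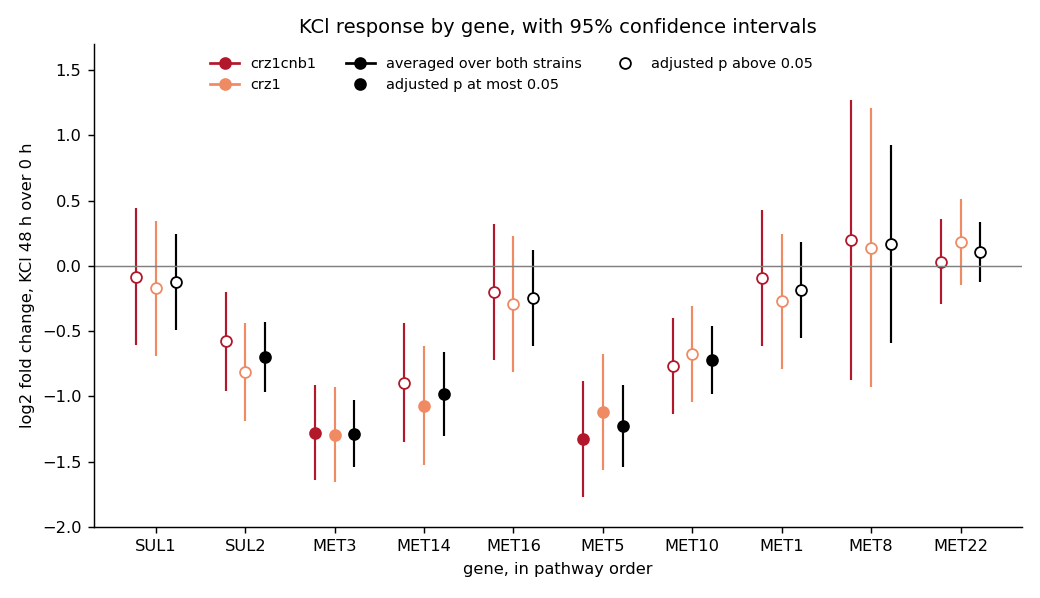
Log2 fold change of KCl at 48 h over 0 h for the 10 genes in pathway order, in crz1cnb1, in crz1 and averaged over both strains, with 95% confidence intervals from the quasi-likelihood fit; filled points have an adjusted p of at most 0.05. The averaged values of SUL2, MET3, MET14, MET5 and MET10 lie between -1.29 and -0.70 and are filled.

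Within single strains fewer genes passed. In crz1cnb1, 2 of the 10 genes were lower in KCl (MET3 and MET5), where 0.222% of all tested features were called lower, and with the replicate block 5 were, where 2.30% were. In crz1, 3 were lower (MET3, MET14 and MET5), where 0.222% of features were, and with the replicate block 5 were, where 1.43% were. The block also raised the share of all features called lower in the averaged comparison to 8.45%, with the same 5 genes called. In each strain SUL2, MET3, MET14, MET5 and MET10 had all 3 KCl libraries below all 3 at 0 h, which 6.01% of tested features had in crz1cnb1 and 3.74% in crz1. MET3 held its call in 12 of 12 fits that left out 1 library in both strains.

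The difference between the strains' responses, which asks whether calcineurin changed the response when Crz1 was absent, was not called for any of the 10 genes. It was called for 0% of all tested features by edgeR with or without the block, by DESeq2 and by limma, and 18 features, 0 of them among the 10 genes, had an unadjusted p of at most 0.05 in edgeR. With the block 68 features had, 0 of them among the 10 genes. P-values spread evenly would put a share of 0.05 of the 6309 tested features there, more than either count. The p-values thus ran high here, and a lack of calls does not show a lack of effect. The response in crz1cnb1 minus that in crz1 was 0.02 ± 0.24 for MET3 (SE; 95% interval -0.50 to 0.53), -0.21 ± 0.29 for MET5 (-0.83 to 0.42) and 0.17 ± 0.30 for MET14 (-0.47 to 0.82). It was -0.09 ± 0.24 for MET10 (95% interval -0.62 to 0.43) and 0.23 ± 0.25 for SUL2 (-0.30 to 0.77). With the replicate block the intervals were narrower: -0.36 to 0.40 for MET3, -0.72 to 0.33 for MET5, -0.25 to 0.56 for MET14, -0.48 to 0.30 for MET10 and -0.13 to 0.59 for SUL2. They still reach from -0.72 (MET5) to 0.59 (SUL2), so equal responses are not shown.

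Levels in crz1cnb1 against crz1 were also compared directly. At 0 h, in KCl and averaged over both, 0 of the 10 genes were called, where 0.0159%, 0.0476% and 0.111% of all tested features were. In edgeR 0 of the 10 genes had an unadjusted p of at most 0.05, where 73, 70 and 116 of the 6309 tested features had. These counts too are below a share of 0.05. For MET3 the averaged log2 difference of crz1cnb1 minus crz1 was 0.00 ± 0.12 (SE; 95% interval -0.25 to 0.26), and the other 9 genes lay between -0.11 (MET1) and 0.03 (MET8).

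Along the pathway the mean levels at 0 h in crz1cnb1 ran from 0.55 TPM for SUL1 to 77.9 TPM for MET22. MET22 and MET14 were the highest in all 4 groups, followed by MET3 and then MET10, and SUL1 was the lowest. In KCl, MET22 averaged 89.1 ± 7.61 TPM and MET14 42.6 ± 9.39 TPM in crz1cnb1, and their libraries did not overlap (SD, n = 3). At 0 h they overlapped, with 77.9 ± 5.38 TPM for MET22 and 71.7 ± 21.1 TPM for MET14 in crz1cnb1. MET5 ranked 5 at 0 h, at 21.02 ± 3.26 TPM in crz1cnb1, and 7 in KCl, at 9.29 ± 1.81 TPM, below MET16 and MET1. In KCl the libraries of MET16, MET1 and MET5 overlapped, so the order of these 3 is within their spread.

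**Figure D5:**
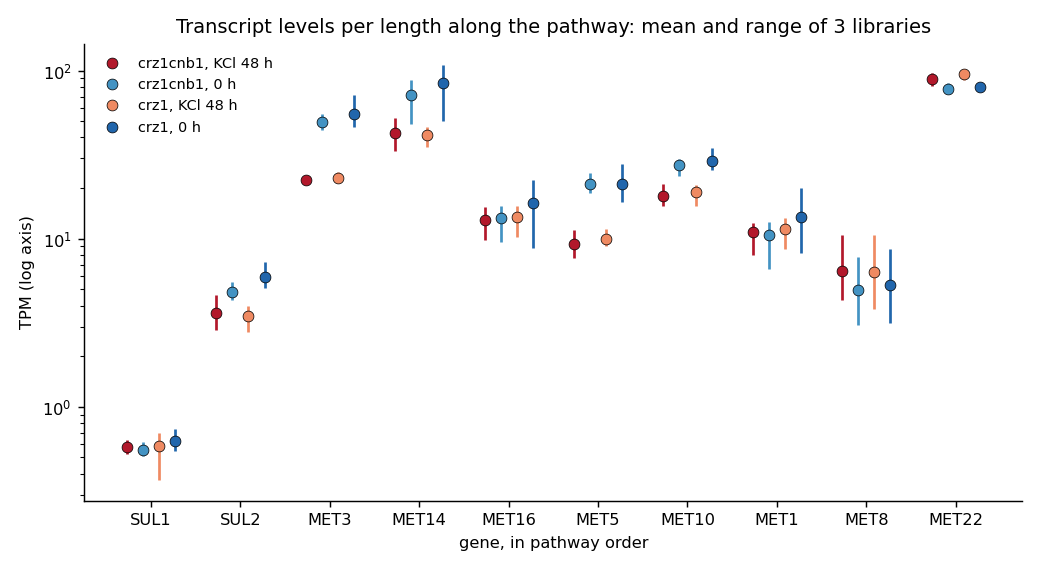
TPM of the 10 genes in pathway order on a log axis, with the mean (points) and the range of 3 libraries (lines) for crz1cnb1 in KCl, crz1cnb1 at 0 h, crz1 in KCl and crz1 at 0 h. SUL1 lies below 1 TPM in every group, and MET3 averages 22.5 TPM in KCl and 49.2 TPM at 0 h in crz1cnb1.

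Some genes varied with the replicate number. Relative to the group means of log2 CPM, MET8 averaged 0.76, -0.65 and -0.11 over the 4 libraries numbered 1, 2 and 3. MET1 averaged 0.11, 0.22 and -0.33, and MET16 averaged 0.09, 0.22 and -0.31. MET14 averaged 0.17, 0.10 and -0.27, a narrower span than its KCl change. MET1 and MET16 were also nearest to each other among the 10 genes across the 12 libraries, with a root mean square difference of 0.14 in centred log2 CPM. Outside the 10 genes, 25 features were closer to MET16 than MET1 was, led by GPA1 (0.09), UFO1 (0.10) and HIS7 (0.12). Likewise, 36 features were closer to MET1 than MET16 was.

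The same measure of likeness ranked all tested features against each gene. MET3 and MET5 were nearest to each other, at 0.13, with 0 of all other features closer. Next came MET17, the sulfhydrylase gene that uses the pathway's sulfide (0.20 to MET3 and 0.22 to MET5), and SAM3, the S-adenosylmethionine permease gene (0.23 to both). After these, ADE17 was nearest to MET5 (0.25). YLR302C, at 0.25 from MET3, overlaps the start of MET17 on the other strand by 12 bases in R64, and reads there cannot be told apart without a stated strand. Nearest to MET14 was MXR1, a methionine sulfoxide reductase gene, at 0.15, ahead of every other member of the pathway. YNL040W and MHT1 followed (0.25 each), and 5 features were closer to MET14 than its nearest pathway member, MET10. For MET10 the nearest was GND1, a dehydrogenase gene of NADPH supply (0.17), followed by YDL071C and YHR182C-A (0.19 each). In all, 94 features were closer to MET10 than its nearest pathway member, SUL2 (0.28). The nearest to SUL2 were YJR003C, RRN3 (0.15 each) and URA4 (0.16), with 265 features closer to SUL2 than its nearest pathway member, MET10.

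The number of E-box hexamers was set beside the KCl response, without a test. All 4 genes of the pathway with 2 hexamers were lower in KCl, as was 1 of the 5 with 1 (MET14), and SUL1 without one was not called. Among the other tested genes with a RefSeq promoter window, 2 of 37 with 2 or more hexamers were lower (5.41%; the phosphate genes PHO84 and SPL2), against 8 of 313 with 1 (2.56%) and 65 of 5356 with none (1.21%). Their median log2 fold changes were 0.04, -0.01 and 0.02. Neighbouring genes that diverge from one window share its matches.

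Genes around the pathway were read from 4 further lists in the comparison averaged over both strains, where 1.38% of all tested features were called lower without the replicate block and 8.45% lower and 10.6% higher with it. Of 12 genes of homocysteine, methionine and SAM synthesis, 2 were lower and 0 higher: MET17 at -1.19 ± 0.16 (edgeR adjusted p = 0.00112) and MET6, the methionine synthase gene, at -0.88 ± 0.16 (edgeR adjusted p = 0.0101). MET17 had 496, 361 and 609 CPM in crz1cnb1 in KCl, against 1291, 1007 and 1204 CPM in crz1cnb1 at 0 h. Of 6 genes for uptake and use of other sulfur compounds, 2 were lower: MMP1, the S-methylmethionine permease gene, at -1.83 ± 0.12 and SAM3 at -0.91 ± 0.14 (edgeR adjusted p = 0.00294). With the replicate block, 4 were lower in each of these lists, and JLP1, a sulfonate dioxygenase gene, was higher (log2 fold change 0.46 ± 0.10, edgeR adjusted p = 0.0115 with the block, 0.0679 without). Of the 6 regulators MET4, CBF1, MET28, MET31, MET32 and MET30, 0 were called with or without the block, and their median log2 fold change was 0.01. Of 5 genes for sulfite export and electron supply, 0 were called, and with the block TRR1, the thioredoxin reductase gene, was lower at -0.29 (edgeR adjusted p = 0.0240).

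The labels were checked against the deleted genes and mating type markers. CNB1 had 14 to 68 counts in the crz1cnb1 libraries and 1346 to 3139 in those of crz1, CRZ1 had 3 to 19 in all 12, and URA3 and LYS2 had 0. LEU2, the marker at the CRZ1 deletion, had 6973 to 12312 counts, and HIS3, labelled his3delta1, had 505 to 1943 in all 12 libraries. MET17, which BY4741 itself lacks, had 8255 to 27137 counts in all 12 libraries, as the listed genotype allows. All 7 MATa markers were detected, and averaged over the strains 3 of them were lower in KCl (STE6, BAR1 and ASG7, at -0.55 to -0.67). By comparison, 1.38% of all tested features were called lower. All 7 had a negative log2 fold change, with a median of -0.58, against -0.47 over the 10 genes. With the replicate block 5 of the 7 were lower, where 8.45% of all tested features were. Of the 4 markers of the other mating type, STE3 was lower at -2.88 ± 0.18, with 16 to 33 counts in KCl and 94 to 220 at 0 h, and MF(ALPHA)1 and MF(ALPHA)2 had 3 to 16 counts throughout, while SAG1 had 458 to 721. The summed TPM of these 4 was 10.9 to 13.6 in KCl and 12.3 to 17.8 at 0 h in crz1cnb1, and 11.1 to 14.3 in KCl and 15.7 to 22.8 at 0 h in crz1, against 7088 or more for the 7 MATa markers. The part of these markers in the results was not tested. Totals were 21305485 to 21599279 counts per library, 3 counts stood for 0.120 to 0.177 normalised CPM, and the floor covers counting error only. The KCl libraries numbered 2 lay on the side of the 0 h libraries on the first principal component (33.7% of variance). Without all 4 libraries numbered 2, SUL2, MET3, MET5 and MET10 were still called in the averaged comparison, and 0 of the 10 genes were called in either strain alone.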

How the data were processed

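Per the file headers, the authors deposited counts per feature and TPM (transcripts per 1000000) for each library. Tools in the submitters' processing notes are featureCounts and DESeq2, and the build is R64. The sources used here give no aligner, strand setting or treatment of multiply matching reads. Counts were tested with edgeR 4.0.16 (R 4.3.3): TMM factors (0.791 to 1.17), filterByExpr, 1 coefficient per group over 12 libraries, robust quasi-likelihood fit, Benjamini-Hochberg adjustment at 0.05 over 6309 features. The common biological coefficient of variation was 0.223. Intervals are 95% by the t distribution with the fit's degrees of freedom. Alternatives were the replicate block, DESeq2 1.42.0 and its size factors, no filter, limma 3.58.1 (voom, and trend on log2(TPM + 1) and log2(TPM + 0.1)), the compared libraries alone, and libraries left out. Promoters and positions came from RefSeq R64 (6048 of 7126 identifiers matched), read with Biopython 1.88. The 10 genes overlap no other RefSeq gene and share 0 runs of 50 bases with other sequence. Overlap with counted features that have no RefSeq locus could not be checked. Named genes outside the 10 included the 3 nearest patterns of SUL2, MET3, MET14, MET16, MET5 and MET10. Others were called members of the lists, and genes with 2 or more hexamers that were called lower. They were chosen after their values were seen.

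The genes and lists were chosen with earlier results of these data known. Pairing by replicate number was checked. Deviations from group means correlated at 0.309 to 0.827 in 18 same-number pairs and -0.732 to 0.317 in 36 other pairs. Same-numbered libraries thus tended to deviate together, although these ranges overlap slightly at their ends. The edgeR tests without the replicate block and the permutation tests of the ratios did not use this pairing, so their p-values do not account for it.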

Additional observations from a re-analysis of the deposited data

How the results depend on the processing

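The 5 averaged calls held whichever of the 12 libraries was left out, and MET3, MET5 and MET10 held in all 20 alternatives. With 1 library, or all numbered 2, left out, called features ranged from 9 to 54 in crz1cnb1, 12 to 61 in crz1 and 138 to 318 averaged, and called pathway genes from 0 to 3, 0 to 4 and 4 to 5. For crz1cnb1 against crz1, called features ranged from 1 to 2 at 0 h, 1 to 4 in KCl and 3 to 7 averaged. The ratio differences ranged from -0.56 to -0.44 for MET5 over MET10 and from 0.47 to 0.68 for SUL1 over SUL2. In single strains they were -0.56 and 0.51 in crz1cnb1 and -0.44 and 0.61 in crz1.

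The replicate block called 314 features in crz1cnb1, 304 in crz1 and 1204 averaged, against 37, 36 and 238 without it, 5 pathway genes in each strain, and 5 and 17 features between strains at 0 h and averaged. DESeq2 called 118, 107 and 425 features, 4 pathway genes in crz1cnb1 and 5 in crz1, and 7, 8 and 20 features between strains at 0 h, in KCl and averaged. On log2(TPM + 1), limma called 1 pathway gene in each strain, 3 averaged, and 4 and 11 features between strains at 0 h and averaged. On log2(TPM + 0.1), it called 1 in crz1, 3 averaged, and 2 features between strains at 0 h. With the 6 crz1 libraries alone, 1 gene was called. The cause of these differences was not tested.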
